A study of Caenorhabditis elegans with 2 samples.

Results

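The 10 fatty acid synthesis genes described here are fasn-1, pod-2, sbp-1, fat-2, fat-5, fat-6, fat-7, elo-1, elo-2 and let-767, out of 19973 protein-coding genes of Caenorhabditis elegans. Binding of the transcription factor ELT-1 was measured at them by ChIP-seq, in which DNA bound to a protein is immunoprecipitated and sequenced. The 2 samples are biological replicates 1 and 2 of a single group: whole L2 larvae, pooled male and female and of unknown age, of strain OP354 (unc-119(tm4063) III; wgIs354), which carries an insertion encoding eGFP-tagged ELT-1. The labels name elt-1 in the antibody field and eGFP-elt-1 in the description. Every sample carries the unc-119 allele and the transgene, no other genotype or untagged strain was analysed here, and the cells that gave each signal cannot be told from whole animals. Regions were assigned to a gene when their summit, the position of highest signal, lay from 5 kb upstream of the gene to its end, which took 53 of the 30000 regions that the authors ranked on both replicates pooled. The authors label these ranked regions as peaks and background, so a region among them is not by itself evidence of binding. The genes were chosen by their role with the strong fasn-1 peak already known, and every region used had to be in the list ranked by signal. Signals and ranks are therefore given as descriptions with no test.

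Fatty acids are built in the cytosol in steps. Acetyl-CoA carboxylase, encoded by pod-2, makes malonyl-CoA, and fatty acid synthase, encoded by fasn-1, joins these units into palmitic acid. Elongases such as ELO-1 and ELO-2 lengthen the chain, together with ketoacyl reductases such as LET-767, and the desaturases FAT-2, FAT-5, FAT-6 and FAT-7 place double bonds in it. SBP-1 is the worm homologue of the mammalian SREBP factors, which activate such genes. The intestine and the epidermis are the main sites of fat storage in the worm. ELT-1 is a GATA factor that specifies the epidermis, and GATA factors as a family recognise the sequence written WGATAR, which stands for AGATAA or AGATAG or TGATAA or TGATAG on either strand.

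The sequences at 4 ranked regions show what such sites look like at members whose regions stayed below the authors' threshold. Each line holds the 101 bp window around a summit, read on the plus strand of the WBcel235 (ce11) sequence from RefSeq, with WGATAR sites in capitals and minus-strand sites as their reverse complement. The pod-2 windows lie at chrII:1141885-1141985, the strongest region of any member other than fasn-1, and at chrII:1138767-1138867, the member window with the most sites. The fat-5 window lies at chrV:17723491-17723591 and the let-767 window at chrIII:6344226-6344326, and each is the strongest region of its gene. The let-767 summit lay 4307 bp upstream of that gene and nearer to the start of C56G2.9, at 947 bp.
pod-2, rank 1094: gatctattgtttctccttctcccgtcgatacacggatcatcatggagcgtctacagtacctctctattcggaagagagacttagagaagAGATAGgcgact
pod-2, rank 1750: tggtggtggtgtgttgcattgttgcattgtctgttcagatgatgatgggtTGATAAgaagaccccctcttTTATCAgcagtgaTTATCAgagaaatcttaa
fat-5, rank 8501: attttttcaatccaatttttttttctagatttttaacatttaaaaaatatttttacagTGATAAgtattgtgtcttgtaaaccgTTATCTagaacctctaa
let-767, rank 9459: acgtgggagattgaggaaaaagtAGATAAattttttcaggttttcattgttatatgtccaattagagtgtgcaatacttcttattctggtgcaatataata
The pod-2 window with 3 sites held 1 of them across the summit itself, yet its pooled signal was 13.6, below the 24.6 of the weakest peak in the thresholded list. These 4 windows were shown because they hold sites, so they cannot tell how sites relate to rank. The strongest regions of sbp-1, fat-6 and elo-1 held no site in the same window. Over the full lists, 53.85% of the thresholded peaks and 20.86% of all ranked regions held a site.

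Among the 10 genes, fasn-1 held thresholded peaks and the other 9 genes held none. A thresholded peak is a region in the list that the authors derived under a limit on the irreproducible discovery rate. That rate is a measure of agreement in rank across replicates, and 351 regions were retained. They are the first 351 regions by pooled signal, so a peak here did not need a high rank in each replicate. Of the 351, 332 had a summit within 100 bp in both replicate lists. The share of members with a peak was 1 of 10, and 445 of all 19973 protein-coding genes (2.23%) had a peak in the same kind of interval. Long genes have longer intervals: fasn-1, pod-2 and sbp-1 are among the 6653 genes with intervals of at least 7918 bp, of which 218 (3.28%) held a peak. With 1 gene called, the members' count rests on fasn-1 alone. When the first 351 regions of a replicate's own list replaced the thresholded list, replicate 1 gave fasn-1 with 1 region and replicate 2 gave fasn-1 with 2 regions and pod-2 with 1, against 2.29% and 2.49% of all genes.

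**Figure D1:**
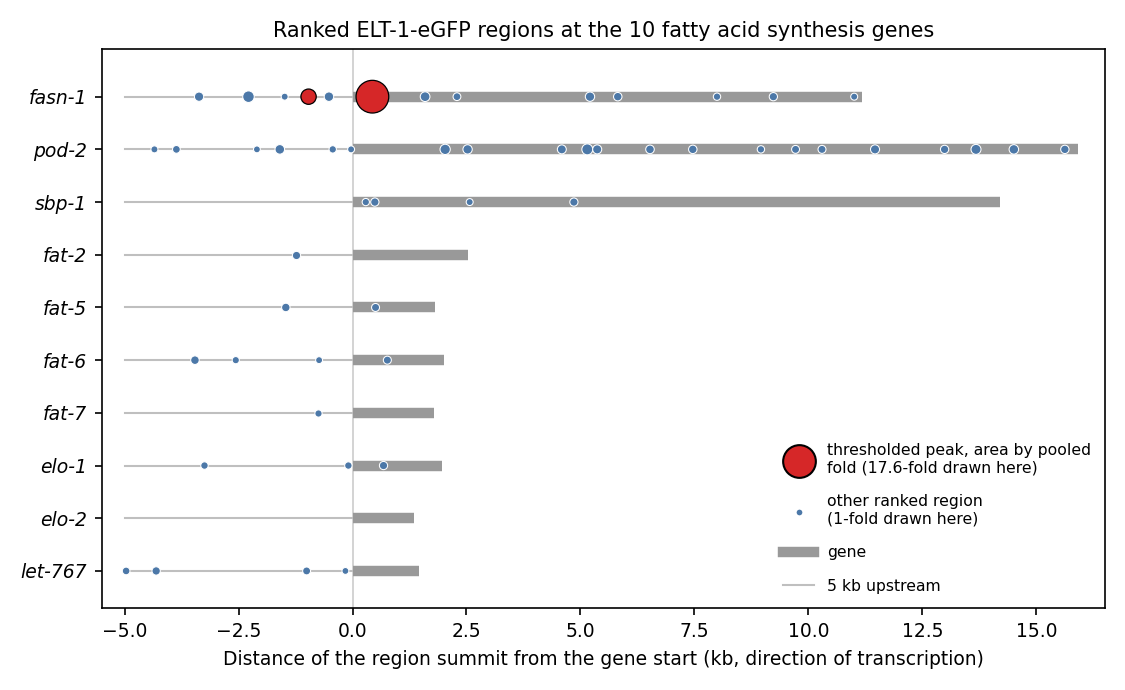
Summits of the 53 ranked regions along the 10 genes, plotted by distance from the gene start in kb (negative values are upstream), with dot area proportional to the pooled signal divided by the list's median. The 2 thresholded peaks, both at fasn-1, are drawn in red, 436 bp inside the gene and 964 bp upstream of it, and elo-2 has no dot.

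The stronger fasn-1 peak was the third strongest of the 30000 ranked regions. The gene (WBGene00009342) lies on the minus strand of chromosome I from 8975366 to 8986540, and the peak spans 8985987 to 8986169, with its summit in the first intron, 436 bp downstream of the only annotated transcript start. That intron is 1670 bp long, and the summit lay 350 bp from the nearer exon. Its signal was 64.2 in replicate 1 and 78.5 in replicate 2, at rank 5 and rank 3 of those lists, and 137.4 in the pooled list. The signal scale differs between lists, so each value was also divided by the median of its own list to give a fold, the median being 4.65 in replicate 1, 5.17 in replicate 2 and 7.81 in the pooled list. On that scale the peak stood at 13.8-fold in replicate 1 and 15.2-fold in replicate 2, a mean of 14.5 ± 0.97 (SD, n = 2), and at 17.6-fold in the pooled list. Both replicates placed it among their first 5 regions, and their summits lay 3 bp and 23 bp from the pooled summit.

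This peak was narrower than most ranked regions. It was 183 bp wide, against 264 bp for 29987 of the 30000 ranked regions. Of the 351 peaks, 12 were narrower than 264 bp, namely those at pooled ranks 2 to 12 and at rank 37. The strongest peak, at rank 1 and nearest to the start of elt-1, was the only one wider than that, at 469 bp. Among the 12 narrower peaks, only the one at rank 2 was wider than the fasn-1 peak. Its neighbours in the pooled ranking were the peaks at rank 2, nearest to the start of R02D5.1, and at rank 4, nearest to the start of srw-85. They had pooled folds of 22.2 and 17.0, and widths of 193 bp and 149 bp. The rank 2 peak stood at 21.1-fold and 15.6-fold in replicates 1 and 2, and the rank 4 peak at 18.4-fold and 9.05-fold. The fasn-1 peak differed less between the replicates than either neighbour did.

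The strongest fasn-1 peak held no WGATAR site within 50 bp of its summit or within its whole width. The nearest such site lay 109 bp from the summit, although the letters GATA occurred 2 times within 50 bp and 4 times in the peak. Of the 351 peaks, 162 lacked WGATAR within 50 bp, and the fasn-1 peak was the highest-ranked of them, followed by the peak at rank 7, in a list where 189 peaks held the motif. The GC content of its 101 bp window was 52.5%, against a median of 42.6% in peaks and 37.6% in all ranked regions. No match says only that these letters are not in the window.

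The second fasn-1 peak lay upstream of the gene, from 8987372 to 8987635 on chromosome I, with its summit 964 bp before the gene start and 1400 bp from the first peak. Its signal was 9.96 in replicate 1 and 13.5 in replicate 2, and 30.1 in the pooled list. These values put it at rank 1070 in replicate 1, rank 278 in replicate 2 and rank 225 in the pooled list. The folds over the median region were 2.14 and 2.62, a mean of 2.38 ± 0.34 (SD, n = 2), and the pooled fold was 3.85. The first peak was thus 4.57 times as strong as the second in the pooled list. The second peak differed between replicates 1 and 2 more in rank, at 1070 and 278, than in fold, at 2.14 and 2.62. The second peak held neither WGATAR nor GATA within 50 bp, and its nearest WGATAR lay 559 bp away. Genes with 2 or more peaks in their interval numbered 53 of 19973 (0.265%).

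The other 11 ranked regions at fasn-1 lay below the threshold, with pooled signals from 6.25 to 17.2 and a median of 9.21. The strongest of them, and the next member region below the threshold, lay 2282 bp upstream at pooled rank 808 with a signal of 17.2, well under the 24.6 of the last peak. It matched a summit of replicate 1 at rank 1214 and none of replicate 2. This region lay closer to the start of F32H2.8, 1109 bp away, than to that of fasn-1. The single fasn-1 region with WGATAR within 50 bp was a weak one, at pooled rank 4152 with a signal of 11.1, and it lay 25 bp from the start of F32H2.8. Within the gene, regions in exons 3, 7, 8 and 11 had pooled signals of at most 11.2. Signal at fasn-1 was thus high at 1 place in the first intron and lower upstream, and the other 7 regions inside the gene stood between 0.805-fold and 1.56-fold.

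**Figure D2:**
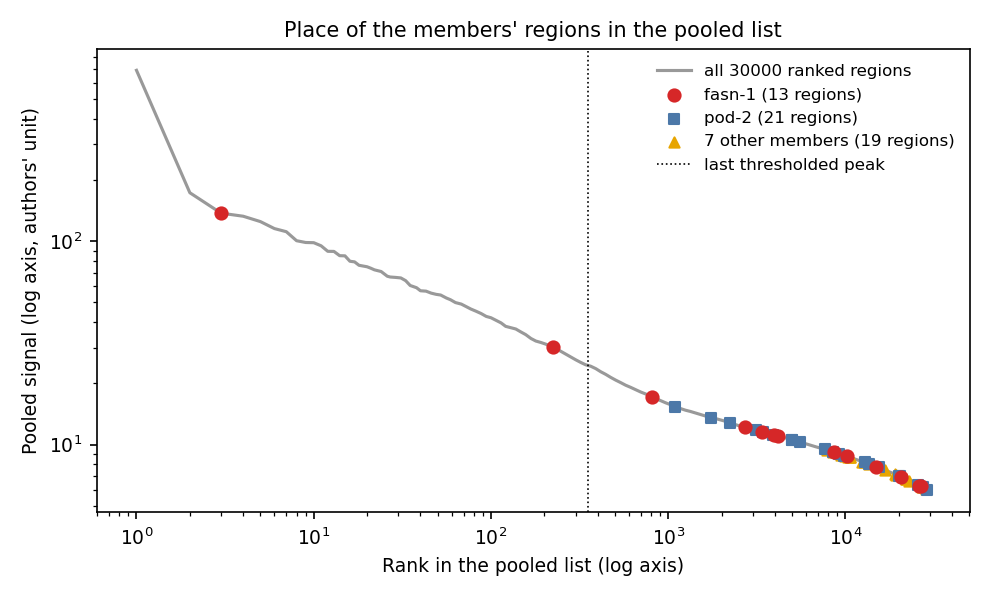
Pooled signal against rank for all 30000 ranked regions (grey line, both axes logarithmic), with the 13 regions of fasn-1, the 21 of pod-2 and the 19 of the other 7 members that had any. The dotted line marks the last thresholded peak, at rank 351: fasn-1 has 2 points to its left, at ranks 3 and 225, and the next member point, also of fasn-1, is at rank 808.

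The gene of acetyl-CoA carboxylase, the enzyme that feeds the synthase, had many ranked regions below the threshold, where the list includes background, and no peak. pod-2 (WBGene00004076, chromosome II from 1136785 to 1152705, plus strand) held 21 ranked regions in an interval of 20921 bp, or 1.00 per kb, against 0.804 per kb at fasn-1, 0.208 at sbp-1 and 0.299 over the genome. Their pooled signals ran from 6.01 to 15.4. The strongest, in the third intron and 5150 bp into the gene, had pooled rank 1094, lay 1096 bp from the start of W09B6.4, matched replicate 1 at rank 981 and 2.19-fold, and had no match in replicate 2. The region at pooled rank 2231, in exon 9, matched replicate 2 at rank 308 and 2.55-fold and had no match in replicate 1. The strongest pod-2 region therefore differed between the replicates, and of the 21 regions 2 matched both replicate lists, 13 matched 1 and 6 matched neither. All 6 upstream regions lay within W09B6.4, a gene that overlaps pod-2, and so did 2 of those inside pod-2. pod-2 has 6 annotated transcripts, some of which start inside the gene. The regions at pooled ranks 1750 and 7631 lay 1522 bp and 590 bp upstream of such starts. A WGATAR site was present at 5 of the 21 summits, within 50 bp, beside 6257 of all 30000 ranked regions (20.9%).

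SBP-1, the regulator of the pathway in worms, had regions close to or below the list's median. sbp-1 (WBGene00004735, chromosome III from 11428367 to 11442566, minus strand) held 4 regions, all inside the gene, with pooled signals of 8.83, 8.67, 6.78 and 6.24, at most 1.13-fold. The weakest of them, in the fifth intron at pooled rank 26576, matched a summit at rank 691 of replicate 1, 2.44-fold over its median region, and none in replicate 2. This was the member region with the widest gap between a replicate's rank and the pooled rank, and the only sbp-1 region with WGATAR within 50 bp. Replicate 2 listed no sbp-1 summit above 1.38-fold.

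At the elongation genes and the reductase, no pooled region exceeded 1.15-fold. elo-1 (chromosome IV from 9526366 to 9528336, plus strand), an elongase of the polyunsaturated pathway, had 3 regions with pooled signals of 8.68, 7.18 and 7.11. elo-2 (chromosome IV from 17466062 to 17467408, minus strand), which elongates palmitic acid, had no ranked region in its interval of 6347 bp, although the interval held 22 WGATAR sites. Replicate 1 listed 2 summits upstream of elo-2, the higher at rank 5090 and 1.42-fold, and replicate 2 listed none. At the level of genes, 17657 of 19973 (88.4%) had at least 1 ranked region, and 9 of the 10 members did. let-767 (chromosome III from 6338508 to 6339969, minus strand) had 4 regions, all upstream, with pooled signals from 6.06 to 8.95, and 2 of them lay inside rpn-13.

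The desaturase genes held only regions below the threshold as well. fat-5 (chromosome V from 17725004 to 17726818, plus strand), which encodes a palmitoyl-CoA desaturase, had regions 1463 bp upstream and 505 bp into the gene, with pooled signals of 9.22 and 8.21. They matched replicate 2 at 1.58-fold and 1.81-fold and had no match in replicate 1, where the strongest fat-5 summit stood at 0.766-fold. The stearoyl-CoA desaturase gene fat-6 (chromosome IV from 11913692 to 11915687, minus strand) had 4 regions with pooled signals from 6.18 to 9.42, 2 of them in coding exons of the neighbouring ZK822.1. Its close copy fat-7 (chromosome V from 7151353 to 7153146, minus strand) had 1 region, 756 bp upstream, with a pooled signal of 6.79. fat-2 (chromosome IV from 13323873 to 13326395, plus strand), whose product turns oleic into linoleic acid, had 1 region, 1235 bp upstream, with a pooled signal of 8.74 and no match in either replicate. Coding sequences of fat-6 and fat-7 were 84.2% identical over 1018 aligned positions, and the longest stretch that the 2 genes share without a difference was 44 bp. How reads that match both copies were placed is not given in the sources used here, so signal within these 2 genes is uncertain.

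**Figure D3:**
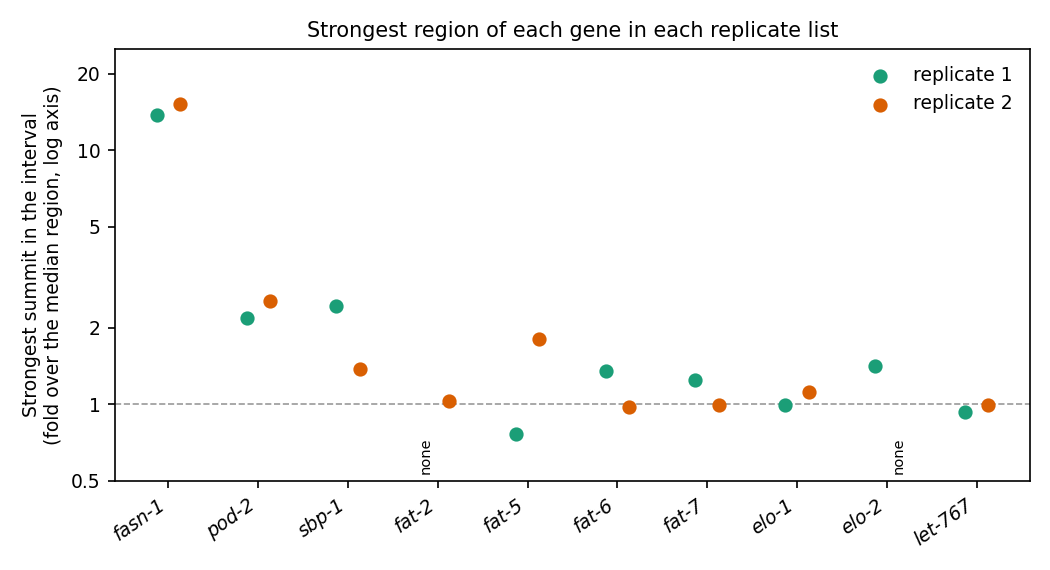
Strongest summit in the interval of each gene in the list of replicate 1 and of replicate 2, divided by that list's median (logarithmic axis, dashed line at 1-fold). fasn-1 stands at 13.8-fold and 15.2-fold, the other points lie at or below 2.55-fold, and fat-2 in replicate 1 and elo-2 in replicate 2 have no summit.

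By the strongest pooled region of each gene, fasn-1 took place 3 among the 17657 genes that had any region. pod-2 took place 1511, fat-6 place 8966, fat-5 place 9475, let-767 place 10217, sbp-1 place 10523, fat-2 place 10784, elo-1 place 10975 and fat-7 place 15922. Their pooled folds were 1.97 for pod-2, 1.21 for fat-6, 1.18 for fat-5, 1.15 for let-767, 1.13 for sbp-1, 1.12 for fat-2, 1.11 for elo-1 and 0.869 for fat-7. From fat-6 to fat-7 these folds spanned less than the strongest summits of replicates 1 and 2 did at 3 genes. These were sbp-1, at 2.44-fold and 1.38-fold, fat-5, at 0.766-fold and 1.81-fold, and fat-6, at 1.35-fold and 0.979-fold. The replicates differed by less at elo-1 (0.991-fold and 1.12-fold), let-767 (0.929-fold and 0.99-fold) and fat-7 (1.25-fold and 0.99-fold). At each of these genes the 2 summits lay at different places, and fat-2 had summits in replicate 2 only. The order of those 7 genes is therefore not taken as a result. At pod-2 the strongest summits stood at 2.19-fold and 2.55-fold, at different places. The fasn-1 value stood apart from all of them in both replicates.

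Of the 53 member regions, 38 had a summit within 100 bp in at least 1 replicate list. These were 7 (13.2%) with a match in both lists and 31 with a match in 1 of them, and 15 (28.3%) had a match in neither. Over all 30000 regions, 13.4% matched both lists and 23.25% neither, and the members' share with a match in both is near that of the whole list. The 7 comprised 3 regions of fasn-1, 2 of pod-2, 1 of fat-6 and 1 of let-767. Apart from fasn-1's first peak, their mean folds over both replicates lay at or below 2.38. The depth of the libraries is unknown from these files, and 2 replicates limit the precision of each mean.

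The GATA motif was about as frequent at the members as in the whole list. A window of 50 bp each side of the summit held WGATAR at 13 of the 53 member regions (24.5%) and at 6257 of 30000 ranked regions (20.9%), and at 189 of the 351 peaks. All but 1 of the 13 lay at members other than fasn-1, and each of those 13 regions was below the threshold. The 10 intervals together held 227 WGATAR sites in 104.2 kb, or 2.18 per kb against 2.38 per kb over the 6 nuclear chromosomes, and 16 of the 227 lay within 50 bp of a ranked summit. By gene, the interval of fat-7 was densest in sites, with 4.12 per kb, and that of pod-2 sparsest, with 1.39 per kb. The member with the highest signal, fasn-1, had 27 sites in 16175 bp (1.67 per kb).

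Peaks at other lipid genes lay in the groups of regulators, phospholipid genes, breakdown genes and lipid binding proteins. Of 73 other lipid genes grouped by role, 9 (12.3%) had a peak in the interval, beside the 2.23% of all genes. These groups were drawn up with earlier results of these data known, and their median interval of 7605 bp exceeded the 7027 bp of all genes, so no test was made. None of the 6 other genes for synthesis and elongation steps, the 3 other desaturases, the 7 other elongases or the 3 genes of branched-chain supply had a peak, and at the share of all genes few or none would be called in groups of this size. The regulators had 3 of 8, the glycerolipid and phospholipid genes 2 of 7, breakdown and lipolysis 3 of 24, and lipid binding proteins and vitellogenins 1 of 15.

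Among the regulators, mdt-15, which encodes a Mediator subunit that works with SBP-1, had a peak 2702 bp upstream with a fold of 4.85 ± 1.0 (SD, n = 2), though it lay closer to W04D12.1, 473 bp from that start. The nuclear receptor gene nhr-49 had a peak in an intron at 3.01 ± 2.0, with 4.45-fold in replicate 1 and 1.58-fold in replicate 2. hlh-30, the worm homologue of TFEB, had an intronic peak at 2.68 ± 1.1, 252 bp upstream of an internal start. All 3 were below the 13.8-fold and 15.2-fold of fasn-1, and the nhr-49 value rested mainly on replicate 1.

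In phospholipid synthesis, pmt-2, a phosphoethanolamine methyltransferase gene, had a peak 51 bp past its start at 6.63-fold and 2.07-fold in replicates 1 and 2, and sams-1, the S-adenosylmethionine synthetase gene, had a peak 2059 bp upstream at 3.76-fold and 3.48-fold. The remaining peaks lay upstream of the carnitine palmitoyltransferase gene cpt-1 (3.69 ± 0.45, SD, n = 2), the acyl-CoA dehydrogenase gene acdh-8 (2.97 ± 0.53), the lipase gene atgl-1 (2.66 ± 0.084) and the vitellogenin gene vit-2 (2.68 ± 0.43). Of these, the acdh-8 peak lay 232 bp from the start of lect-2, and the vit-2 peak lay nearer to acn-1. The peak at atgl-1, at pooled rank 349, fell in C05D11.8. Of the 9 peaks, 5 (55.6%) held WGATAR within 50 bp, near the share of all peaks (189 of 351, 53.85%).

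**Figure D4:**
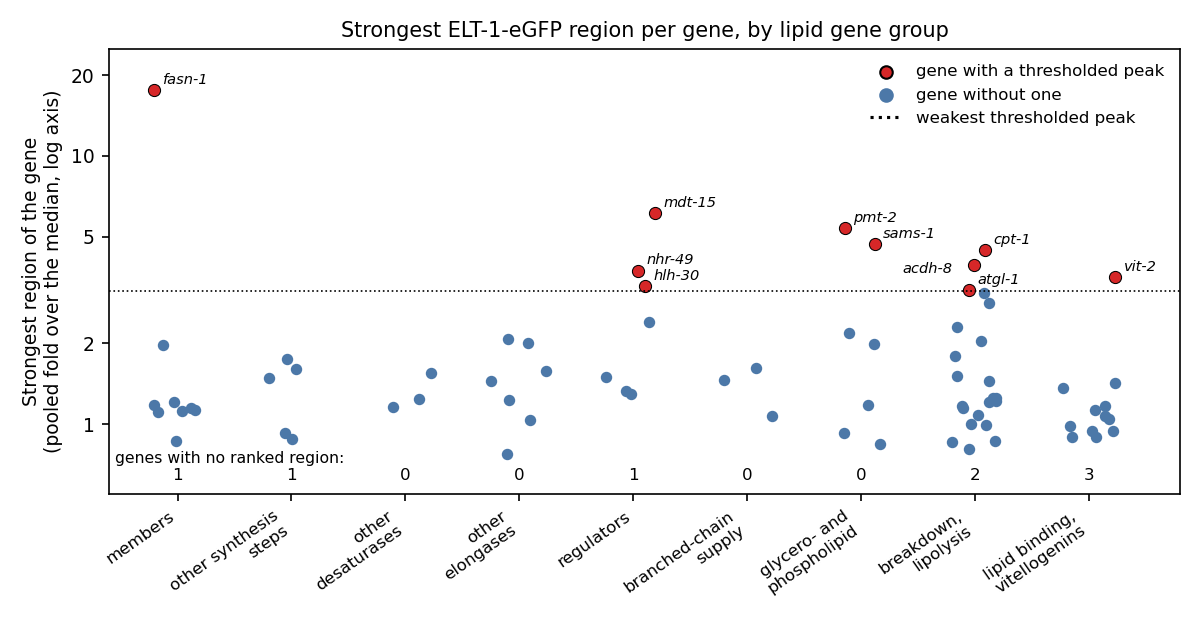
Strongest pooled region of each gene divided by the list's median (logarithmic axis), for the 10 members and 8 groups of other lipid genes, with genes that hold a thresholded peak in red and the dotted line at the weakest peak, 3.15-fold. fasn-1 stands at 17.6-fold and the next gene, mdt-15, at 6.13-fold, and the digits at the foot count genes with no ranked region.

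The windows of 2 of these peaks show the contrast in sequence. The pmt-2 window (chrV:4628581-4628681) held 3 WGATAR sites and the mdt-15 window (chrIII:5836403-5836503) held none, with capitals and strand as above.
pmt-2, rank 102: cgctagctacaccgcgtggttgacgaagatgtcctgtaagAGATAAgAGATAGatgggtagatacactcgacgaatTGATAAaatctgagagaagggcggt
mdt-15, rank 72: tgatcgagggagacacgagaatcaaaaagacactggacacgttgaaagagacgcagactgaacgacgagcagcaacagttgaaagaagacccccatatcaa
The mdt-15 peak, like both peaks at fasn-1, is thus among the 162 of 351 peaks without this motif within 50 bp of the summit. The pooled signal was 47.8 at mdt-15 and 42.0 at pmt-2, but the replicates differed in order. Replicate 1 gave 25.9 at mdt-15 and 30.8 at pmt-2, and replicate 2 gave 21.4 and 10.7. These 2 windows do not show how signal relates to the motif.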

How the data were processed

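ELT-1-eGFP ChIP-seq regions of 2 replicates were used as deposited. The signal of each region is the authors' value; per the listing deposited with the files, regions were ranked from each replicate's alignments and from both pooled, and a thresholded list was derived from these. Aligner, caller, threshold, versions and read depth were not given in the sources used here. Lists on ce10 were not used. Positions count from 1 on ce11 (WBcel235), and all region ends lay within the reference chromosomes. Gene positions came from Ensembl release 115 and sequence from RefSeq.

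A replicate value is that of the nearest summit within 100 bp, and SDs over 2 replicates include any difference in scale. WGATAR was searched on both strands in 101 bp windows. No test was made. Python 3.11.15, numpy 2.4.6, pandas 2.3.3 and Biopython 1.88 were used. The assignment of summits to intervals and the WGATAR search were checked on simulated data. Members and lists were chosen with earlier results of these data known. The genes named are the members, the other lipid genes with a peak, nearer neighbours and the rank neighbours of the strongest member peak. Alternatives changed the interval, peak list, replicate, match distance, scale, window and motif.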

Additional observations from a re-analysis of the deposited data

How the results depend on the processing

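fasn-1 held a peak under each of the 7 alternatives tried for the interval and the peak list. Counts of members with a peak ran from 1 to 2 when a replicate was left out, the second being pod-2 with replicate 2 alone, and peaks at members ran from 1 to 3. With only the stronger part of the thresholded peaks, the members held 1 peak, and 4 other lipid genes had one in place of 9 (1.13% of all genes, in place of 2.23%). The count of other lipid genes was also 4 with 2 kb upstream (1.45% of all genes), and 16 with the first 1000 pooled regions (6.82%). It was 11 with 10 kb upstream (3.55%). With the upstream part stopped at the nearest other gene it was 6 (1.51%), without mdt-15, acdh-8 and atgl-1. Member regions with a motif numbered 6 within 25 bp (11.3%, and 10.8% of all ranked regions), 16 within 100 bp (30.2% and 37.4%), 4 for AGATAA (7.55% and 6.94%) and 23 for GATA (43.4% and 49.5%), in place of 13 (24.5% and 20.9%). The members' share was thus below that of all regions within 100 bp and for GATA, and above it otherwise; the cause was not tested. The fasn-1 fold of 14.5 was 12.8 over the mean region. Depth is unknown, so a weak signal cannot be told from none.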

Other observations

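The letters GACGCAG, searched on either strand within 50 bp of the summit after they were seen in the windows of several lipid gene peaks, occurred in 4 of the 9 peaks at other lipid genes, those of mdt-15, cpt-1, acdh-8 and atgl-1. They occurred in 27 of the 351 peaks (7.69%) and in 437 of the 30000 ranked regions (1.46%), and in 0 of the 53 regions at fatty acid synthesis genes, fasn-1 included. As the word was picked from these windows, its count at the lipid genes is a description.

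The replicate lists held 90 summits in the members' intervals, 45 in each, and 46 of them had no pooled summit within 100 bp. Of those 46, the highest-ranked lay 953 bp inside fasn-1, at rank 912 and 2.23-fold in replicate 1, followed by a summit 12810 bp into pod-2 at rank 1054 and 2.15-fold in the same replicate.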
